A study of Homo sapiens with 13 samples.

Results

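The genes described here are 40 genes of the G1/S transition and of DNA replication, a list of gene symbols looked up in a table of 38616 genes. Of the 40, 39 had a row in that table, and the expression of E2F2 is not analysed here. All 39 passed the filter on low values, a normalized read count of 10 or more in 3 libraries or more, and so were among the 15965 genes tested. By role they are 10 origin licensing factors, 6 helicase activation factors, 5 sliding clamp and clamp loader subunits, 7 polymerase and lagging strand proteins, 2 ribonucleotide reductase subunits, 5 genes of the cyclins, CDK2 and CDC25A, and 5 genes of transcription, checkpoint and chromatin.

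RNA-seq was done on 9 libraries of MDA-MB-231, a human breast cancer cell line of the triple-negative class, with 3 libraries in each of 3 groups. The sg2 and sg1 groups carry a knockout of KIAA1429 (VIRMA), the scaffold subunit of the nuclear complex that writes N6-methyladenosine (m6A) on mRNA, and are read here as separate guides from their names. The NTC group is the non-targeting control. All groups are stable lines made by lentiviral infection and selection and are labelled passage 2, so the controls share the infection and the selection with the knockouts. The labels do not say whether a line is a clone or a pool, nor whether libraries of the same group are separate cultures. The p-values therefore speak only to the spread from library to library, which may be technical. For m6A, MeRIP-seq, a pull-down of mRNA fragments with an m6A antibody, was done in KIAA1429 knockdown (KD) cells and in NTC cells, with 1 pull-down and 1 input library per condition.

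Before S phase, the origin recognition complex, CDC6 and CDT1 place the MCM helicase on DNA, a step called licensing. Cyclin E with CDK2 and CDC25A then drives entry into S phase, where CDC45 and the GINS complex switch the helicase on and polymerases, the PCNA clamp and its RFC loader copy the DNA. Many of these genes are known targets of the E2F transcription factors, which are held in check by the retinoblastoma protein until late G1.

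The libraries held 13975173 to 22051705 gene reads. The line's markers VIM, CD44, AXL, CAV1, MSN and ETS1 were present in each library, and their summed normalized counts ran between 70382 and 83835 (sg2), 57702 and 70328 (sg1), and 76782 and 88704 (NTC). Of 8 luminal markers ESR1, PGR and FOXA1 stayed at or below 7.07, while the other 5, ERBB2, GATA3, KRT19, CDH1 and EPCAM, passed the filter on low values. The sum of the 8, nearly all of it from these 5, ran between 7042 and 9737 (sg2), 9034 and 9411 (sg1), and 9613 and 10605 (NTC). Of 7 markers of blood, endothelial and other cells 6 had a row, and their sums ran between 295 and 431 (sg2), 547 and 696 (sg1), and 871 and 926 (NTC), most of it PECAM1, while the T cell marker CD3E was at 0 in each NTC library. PTPRC, a marker of blood cells, stood out in the library sg1-3, with values given under other observations. The part of these markers in the results was not tested. VIRMA itself had normalized counts of 1566, 1990 and 2170 in sg2, 1437, 1560 and 1613 in sg1, and 2196, 2122 and 2689 in NTC; neither guide passed the test (log2 fold change -0.30 with sg2, adjusted p = 0.236, and -0.60 with sg1, adjusted p = 0.0718). A transcript level is a weak check of a knockout label. The library sg2-1 stood apart from its group: on the first principal component, with 53.3% of the variance, it lay at -29.6, against 68.5 for sg2-2 and 77.2 for sg2-3; sg1 libraries lay between -56.8 and -46.1 and NTC libraries between 9.91 and 15.95. Reads of small RNA genes per 10000 reads ran the same way, at 34.1 for sg2-1, 108 for sg2-2 and 104 for sg2-3, from 23.6 to 30.8 for sg1 libraries and from 59.6 to 100.4 for NTC libraries. Counts of called genes, and the values of described genes whose call changes, are therefore given with and without sg2-1. The library sg1-3 also stood apart from its group. On the second component, with 17.3% of the variance, it lay at -34.6, against 2.58 for sg1-1 and 2.25 for sg1-2. It held the most gene reads, 22051705, and had 6844 genes at 0, against 9648 for sg1-1 and 9466 for sg1-2. An alternative fit leaves out sg1-3 and sg2-1 together. The part of these library differences in the results was not tested.

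With sg2, transcripts of the replication program were higher than in NTC. Of the 39 genes, 19 rose and 0 fell (limma, adjusted p below 0.05), where 4.19% of all genes tested rose and 4.57% fell, 8.76% in either direction. The estimates of all 39 were above 0, with a median log2 fold change of 0.61 (range 0.17 to 1.26) against a median of 0.03 over all genes tested, and 32 had an unadjusted p below 0.05. In bulk libraries a larger share of cells in S phase and more transcript per cell cannot be told apart.

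Of the 10 licensing factors 8 rose, and MCM6 (0.77, adjusted p = 0.123) and MCM7 (0.49, adjusted p = 0.0534) missed the threshold. Among the other roles, 2 of 6 helicase activation factors rose (MCM10 and GINS3), 1 of 5 clamp and loader subunits (RFC2), 2 of 7 polymerase and lagging strand genes (POLA2 and FEN1), 1 of 2 reductase subunits (RRM2), 2 of 5 of the cyclins, CDK2 and CDC25A (CCNE1 and CDC25A), and 3 of the 4 measured genes of transcription, checkpoint and chromatin (E2F1, CLSPN and UHRF1). Of all genes 4.19% rose. These role counts changed with the fit. Without sg2-1 the genes not called were GINS4, POLD1, POLE, LIG1 and CCND1, where 44.8% of all genes changed. All licensing factors, clamp and loader subunits and reductase subunits rose in that fit.

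**Figure D1:**
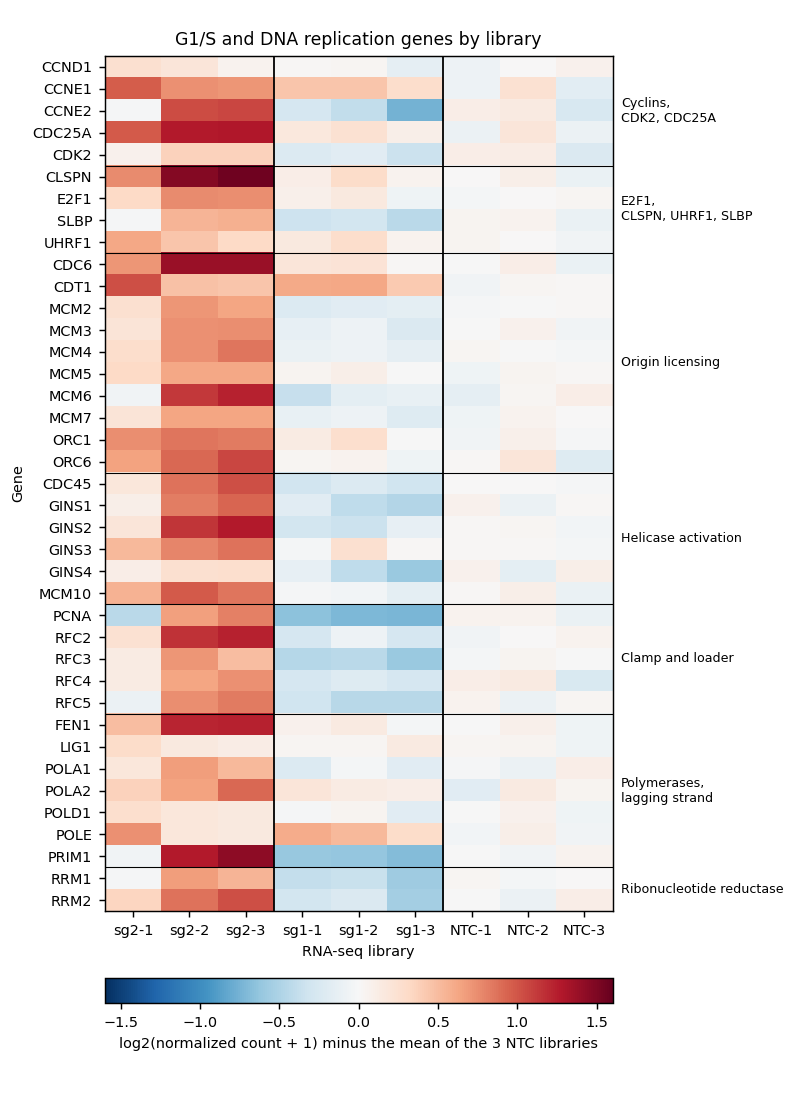
Heat map of 39 genes (rows, grouped by role) in 9 RNA-seq libraries (columns), coloured by log2(normalized count + 1) minus the mean of the 3 NTC libraries. The columns sg2-2 and sg2-3 are red for all 39 genes, sg2-1 is paler for most, and the sg1 columns are red for CCNE1, CDT1 and POLE and blue for PCNA, RFC3 and PRIM1.

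The rise differed between the sg2 libraries. Of the 39 genes, 39 lay above each NTC library in sg2-2, 38 in sg2-3 and 30 in sg2-1, where 41.6%, 41.9% and 36% of all genes did. In sg2-1 3 genes lay below each NTC library, where 39.9% of all genes did. The median difference from the NTC mean on the log2 scale was 0.26 for sg2-1, 0.73 for sg2-2 and 0.81 for sg2-3. In 29 genes the sg2 and NTC groups did not overlap and sg2 was higher (13.6% of all genes), and in 0 was sg2 lower without overlap (14.3% of all genes). Without sg2-1, 34 of the 39 rose, in a fit in which 44.8% of all genes changed; the 15 gained were MCM6, MCM7, CDC45, GINS1, GINS2, PCNA, RFC3, RFC4, RFC5, PRIM1, POLA1, RRM1, CCNE2, CDK2 and SLBP. Without NTC-1, NTC-3 or sg2-2 the number was 6 (2.22%, 3.38% and 2.98% of all genes changed). It was 8 without sg2-3 (3.70%), 9 without NTC-2 (4.88%), 10 without sg1-1 (5.51%), 11 without sg1-2 (5.54%) and 17 without sg1-3 (8.39%). The estimates of all 39 stayed above 0 in each of these fits. The genes called in the fit of all libraries and in each of 21 alternatives were 6: ORC1, ORC6, CDC6, MCM10, CDC25A and CLSPN.

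With sg1, none of this rise was called. Of the 39 genes 0 passed limma (8 at an unadjusted p below 0.05; edgeR gave 0, where it called 0.169% of all genes), where 0.194% of all genes passed, 0.113% higher and 0.0814% lower. The median log2 fold change was -0.14 (range -0.70 to 0.55; -0.01 over all genes), with 15 estimates above 0 and 24 below. In 4 genes the 3 sg1 libraries lay above the 3 NTC libraries (22.9% of all genes) and in 16 below (29.4%). DESeq2, which called 14% of all genes, gave 2: CDT1 higher (log2 fold change 0.59, adjusted p = 0.0297) and RFC3 lower (-0.46, adjusted p = 0.0369). The sg1 count changed with the libraries in the fit. Without sg2-1, 16 genes passed, 3 higher (CDT1, POLE and CCNE1) and 13 lower (PCNA, RFC2, RFC3, RFC5, MCM2, CDC45, GINS1, GINS4, PRIM1, RRM1, RRM2, CCNE2 and SLBP), in a fit in which 40.7% of all genes changed. The sg1 estimates hold no sg2 library, so between these fits they are equal and only the pooled spread differs. With only sg1 and NTC in the fit 13 passed, 2 higher and 11 lower, among 37.4% of all genes. With replicate numbers as a block within sg1 and sg2, CDT1 passed as higher (adjusted p = 0.0499) and 7.5% of all genes changed.

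**Figure D2:**
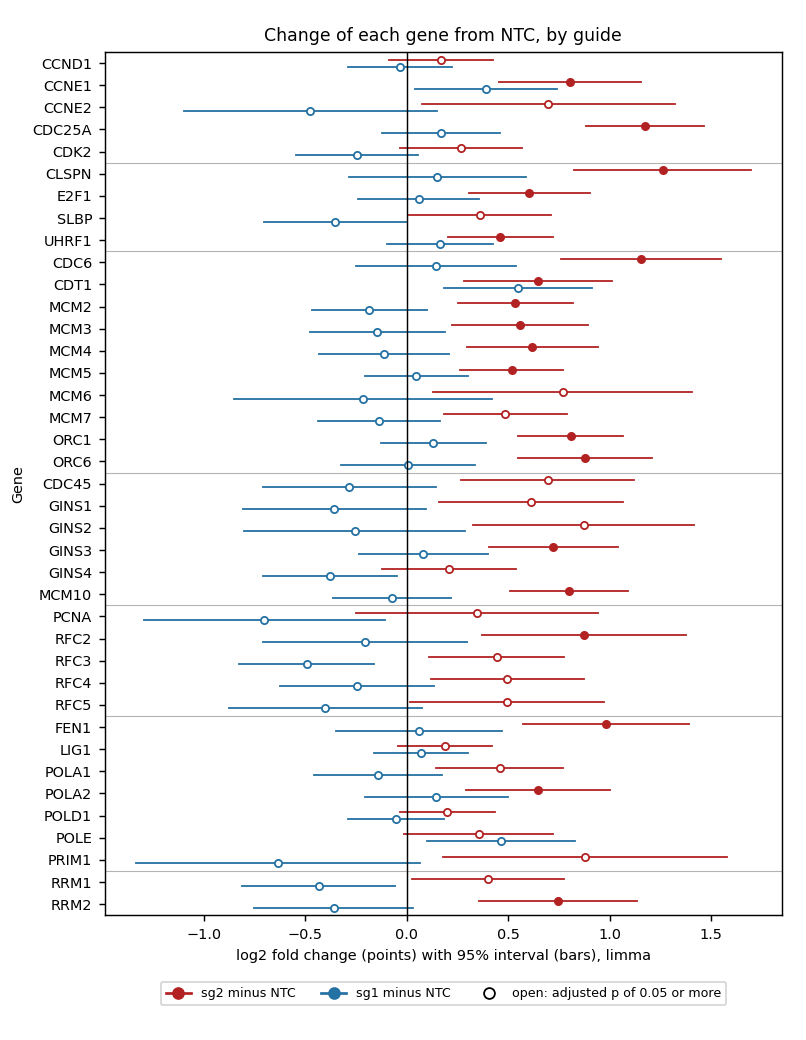
Log2 fold change of each of 39 genes from NTC for sg2 (red) and sg1 (blue), with 95% limma intervals as bars; filled points passed an adjusted p of 0.05. The red points lie at 0.17 to 1.26 and the blue points at -0.70 to 0.55, all of them open.

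Taking both guides together as a mean, 6 of the 39 genes rose and 0 fell (limma; 1.74% of all genes rose, 2.25% fell and 3.98% changed): CDC25A, CLSPN, CDC6, ORC1, CDT1 and CCNE1. The median over the 39 was 0.21. In 4 genes each of the 6 knockout libraries lay above each NTC library (4.62% of all genes), namely CCNE1, CDT1, POLE and UHRF1, and in 0 below (5.88%). Without sg2-1 the number called was 25 (21.6% of all genes changed), and without NTC-1 or NTC-3 it was 0 (0.188% and 0.451%). Without sg1-1, sg1-2 or sg2-2 it was 1 (1.46%, 1.40% and 2.04%), and without sg1-3, sg2-3 or NTC-2 it was 2 (2.77%, 2.95% and 1.81%). In the fits with 0 calls 11 genes (without NTC-1) and 14 (without NTC-3) had an unadjusted p below 0.05 in limma. With all libraries edgeR called 4 (4.29% of all genes) and DESeq2 13 (10.1%). These 6 are shown in full because they are the genes called over both guides.

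CDC25A, the phosphatase that activates CDK2, had normalized counts of 957, 1167 and 1182 in the sg2 libraries, 545, 573 and 519.8 in the sg1 libraries, and 456, 553 and 453 in the NTC libraries. The sg2 libraries stood far above the rest, while the sg1 and NTC ranges overlapped. The log2 fold change was 1.18 ± 0.13 (SE) with sg2, 2.26-fold (adjusted p = 0.00123), and 0.17 with sg1 (adjusted p = 0.387). CLSPN encodes claspin, a fork protein that relays the ATR checkpoint signal to CHK1, and had 1224, 2012 and 2145 in the sg2 libraries, 782, 888 and 752 in the sg1 libraries, and 728, 778 and 675 in the NTC libraries. Here sg2-1 was the lowest of its group yet above each library of the other groups, and sg1-3 lay inside the NTC range. It rose 2.4-fold with sg2 (1.26 ± 0.20, adjusted p = 0.0052), against 0.15 with sg1 (adjusted p = 0.609).

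CDC6, the loader that works with the origin recognition complex, had 2418, 3850.1 and 3867 in the sg2 libraries, 1695, 1722 and 1506 in the sg1 libraries, and 1475, 1599.97 and 1379.8 in the NTC libraries. The pair sg2-2 and sg2-3 stood highest, sg2-1 came next, and sg1 overlapped with NTC. Its rise with sg2 was 2.23-fold (1.16 ± 0.18, adjusted p = 0.00515), and the sg1 estimate was 0.14 (adjusted p = 0.587). ORC1, the largest subunit of the origin recognition complex, had 683, 739 and 724 in the sg2 libraries, 448, 491 and 405 in the sg1 libraries, and 392, 431 and 401 in the NTC libraries. Its sg2 libraries were close together and did not overlap with any other library. The rise was 1.75-fold with sg2 (0.81 ± 0.12, adjusted p = 0.00369) and the sg1 estimate 0.13 (adjusted p = 0.444).

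CDT1 and CCNE1 followed another order among the libraries. CDT1, the licensing factor that geminin inhibits, had 666, 450.04 and 445 in the sg2 libraries, 495, 501 and 438 in the sg1 libraries, and 314, 334 and 331 in the NTC libraries. All 6 knockout libraries lay above NTC, and sg2-1 was the highest of all while sg2-2 and sg2-3 lay within the sg1 range. The log2 fold change was 0.65 ± 0.16 with sg2 (adjusted p = 0.0382, up to 0.149 over the alternatives) and 0.55 ± 0.16 with sg1 (adjusted p = 0.0881). CCNE1, cyclin E1, the partner of CDK2 at S phase entry, had 295, 249.8 and 246 in the sg2 libraries, 205, 205 and 182 in the sg1 libraries, and 142, 178 and 133 in the NTC libraries. The groups were ordered sg2, sg1, NTC without overlap, and sg2-1 was again the highest. It rose by 0.80 ± 0.16 with sg2 (adjusted p = 0.0138, up to 0.0749), with an estimate of 0.39 ± 0.16 with sg1 (adjusted p = 0.137).

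In the mean of both guides the log2 fold change was 0.67 ± 0.11 for CDC25A (adjusted p = 0.0139, up to 0.12 over the alternatives), 0.71 ± 0.17 for CLSPN (0.0495, up to 0.211), 0.65 ± 0.15 for CDC6 (0.0472, up to 0.211), 0.47 ± 0.10 for ORC1 (0.0338, up to 0.201), 0.60 ± 0.14 for CDT1 (0.0472, up to 0.226) and 0.60 ± 0.14 for CCNE1 (0.0415, up to 0.215). For CDC25A, CLSPN, CDC6 and ORC1 this mean joins a rise with sg2 to an sg1 estimate of 0.13 to 0.17. For CDT1 and CCNE1 the estimates of the guides were nearer to each other, and their difference did not pass (0.10 ± 0.16, adjusted p = 0.641, and 0.41 ± 0.16, adjusted p = 0.068).

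**Figure D3:**
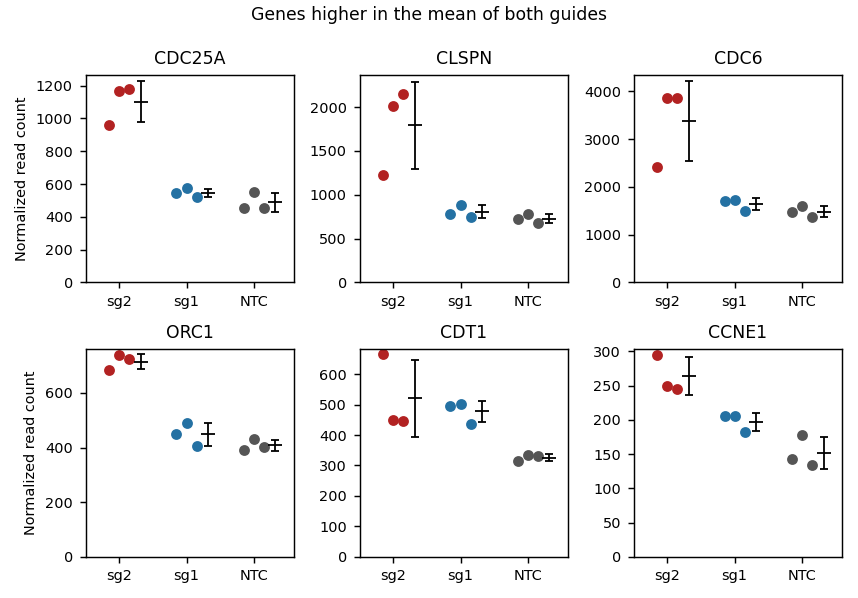
Normalized read counts of the 6 genes called in the mean of both guides, by group (sg2, sg1, NTC); points are libraries and bars the mean ± SD of 3. In CDC25A, CLSPN, CDC6 and ORC1 the sg2 points stand above the rest and sg1 overlaps with NTC, and in CDT1 and CCNE1 both guides lie above NTC with sg2-1 highest.

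The promoters of these 6 genes are shown to set out where the letters of E2F, the factor family of this program, lie in 4 of them and are missing from the other two. Each line is the RefSeq window from 250 bases before to 50 bases after the gene start on build GRCh38.p14, 5′ to 3′ on the gene's strand, with E2F letters in capitals. CDC6 lies at chr17:40287629-40287928 and CDT1 at chr16:88803539-88803838 on the plus strand, as does CCNE1 at chr19:29811741-29812040. CDC25A (chr3:48188368-48188667), CLSPN (chr1:35769929-35770228) and ORC1 (chr1:52404374-52404673) are on the minus strand, and the start used for ORC1 lies inside the RefSeq span of that gene.
CDC25A: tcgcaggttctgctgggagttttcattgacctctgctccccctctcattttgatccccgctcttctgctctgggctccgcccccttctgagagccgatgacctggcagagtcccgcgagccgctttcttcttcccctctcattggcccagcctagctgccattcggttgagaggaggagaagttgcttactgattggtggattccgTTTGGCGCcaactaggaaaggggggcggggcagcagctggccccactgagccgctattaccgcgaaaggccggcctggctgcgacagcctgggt
CLSPN: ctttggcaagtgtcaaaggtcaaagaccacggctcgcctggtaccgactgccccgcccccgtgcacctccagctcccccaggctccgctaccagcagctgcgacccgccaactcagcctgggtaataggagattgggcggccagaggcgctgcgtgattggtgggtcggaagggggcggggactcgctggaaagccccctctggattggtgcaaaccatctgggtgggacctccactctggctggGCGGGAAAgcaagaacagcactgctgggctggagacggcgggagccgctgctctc
CDC6: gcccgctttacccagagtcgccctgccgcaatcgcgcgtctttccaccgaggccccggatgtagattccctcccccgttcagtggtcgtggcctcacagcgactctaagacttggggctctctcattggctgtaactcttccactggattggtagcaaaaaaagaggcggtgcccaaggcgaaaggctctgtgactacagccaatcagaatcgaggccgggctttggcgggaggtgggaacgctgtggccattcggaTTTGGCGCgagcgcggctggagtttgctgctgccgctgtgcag
CDT1: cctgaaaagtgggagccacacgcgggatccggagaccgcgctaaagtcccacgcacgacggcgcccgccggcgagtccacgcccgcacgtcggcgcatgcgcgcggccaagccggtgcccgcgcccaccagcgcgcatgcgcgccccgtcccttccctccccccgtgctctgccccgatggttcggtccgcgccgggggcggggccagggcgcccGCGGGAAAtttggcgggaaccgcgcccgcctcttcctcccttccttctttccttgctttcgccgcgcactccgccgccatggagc
CCNE1: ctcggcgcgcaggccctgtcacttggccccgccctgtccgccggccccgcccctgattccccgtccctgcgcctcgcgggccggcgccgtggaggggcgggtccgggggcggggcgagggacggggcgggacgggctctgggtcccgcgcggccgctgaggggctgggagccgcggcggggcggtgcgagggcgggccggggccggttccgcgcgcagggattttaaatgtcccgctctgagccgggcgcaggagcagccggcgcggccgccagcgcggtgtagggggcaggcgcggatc
ORC1: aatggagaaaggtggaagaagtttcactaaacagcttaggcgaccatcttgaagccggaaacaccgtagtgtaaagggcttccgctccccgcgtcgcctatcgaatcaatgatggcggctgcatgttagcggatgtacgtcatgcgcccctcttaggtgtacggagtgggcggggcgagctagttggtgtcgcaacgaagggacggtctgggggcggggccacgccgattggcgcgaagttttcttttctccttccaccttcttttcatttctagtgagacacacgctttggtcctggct

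The match begins 44 bases before the start in CDC25A, 5 before it in CLSPN and 35 before it in CDT1, and 8 bases after it in CDC6. CCNE1 and ORC1 have none of the letters in this window, which says nothing of E2F binding there. The letters were TTTCCCGC, TTTCGCGC, TTTGGCGC and TTTGCCGC on either strand, and 34 of the 40 genes had a window. They were found in 20 of these 34 promoters, 58.8%, against 703 of 15843 promoters of coding genes, 4.44%. In 17 of the 20 a match began within 60 bases of the gene start, 85%, against 271 of 703, 38.5%, over coding genes. The CCAAT box (CCAAT on either strand) was in 61.8% of the 34 and 36.4% of coding promoters. The cell cycle homology region of G2/M genes (TTTGAA or TTCGAA) was in 5.88%, against 13.5% of coding promoters and 70.8% of 24 promoters of G2/M genes. A match is a description of letters, not a bound site. Among the measured genes, the 19 with E2F letters had 10 called with sg2 and a median log2 fold change of 0.60. The 14 without had 7 called and a median of 0.77 (4.19% of all genes rose). Without sg2-1 all of the 19 rose but LIG1 and POLE, and all of the 14 but POLD1, where 44.8% of all genes changed.

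**Figure D4:**
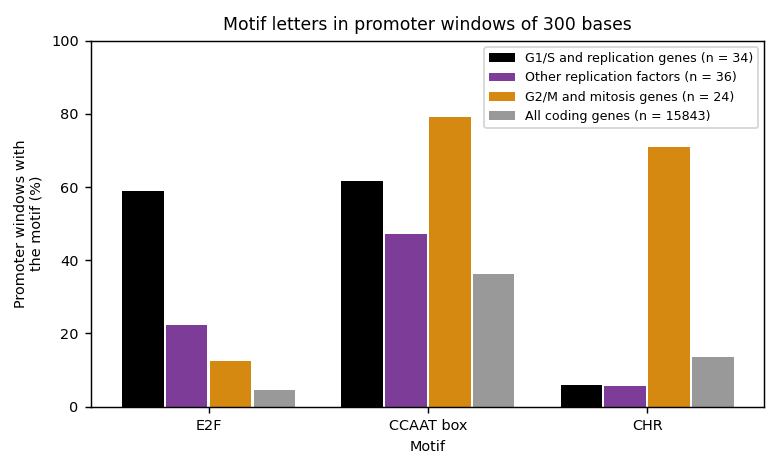
Share of promoter windows of 300 bases (percent) that hold the letters of E2F, the CCAAT box or the cell cycle homology region (CHR), for 34 G1/S and replication genes, 36 other replication factors, 24 G2/M genes and 15843 coding genes. E2F letters are in 58.8%, 22.2%, 12.5% and 4.44% of these sets, and CHR letters are in 70.8% of the G2/M genes.

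Compared with sg1, transcripts of most of these genes were higher with sg2. Of the 39 genes 32 were higher in sg2 than in sg1 and 0 lower (limma, adjusted p below 0.05; 18.3% of all genes were higher, 11.5% lower and 29.8% differed), with a median log2 difference of 0.73. In 36 genes the 3 sg2 libraries lay above the 3 sg1 libraries (23.7% of all genes) and in 0 below (18.2%). All 6 helicase activation factors, 5 of 5 clamp and loader subunits and both reductase subunits were higher, as were 9 of 10 licensing factors. The 7 genes that did not pass were CDT1, POLD1, POLE, LIG1, CCND1, CCNE1 and UHRF1. They are the 7 genes in which sg2-1 was the highest of the sg2 libraries (42.7% of all genes); in the other 32 it was the lowest (48.3%). The same libraries enter both statements. These counts changed with the fit. With only sg2 and sg1 in the fit 0 passed (0.0188% of all genes), and 33 had an unadjusted p below 0.05. With edgeR and DESeq2 32 each passed (27.4% and 37.7% of all genes). Without sg1-2 or sg2-2 the number was 0 (0.106% and 0.138% of all genes), with 35 and 33 at an unadjusted p below 0.05. Without sg1-1 or sg2-3 it was 1 (0.457% and 0.376%), and without sg1-3 it was 2 (0.958%). Without sg2-1 it was 35, in a fit in which 62.9% of all genes differed. Of these 34 were higher in sg2, POLD1 and UHRF1 being added, and POLE was lower. In these fits the median log2 difference stayed between 0.67 and 0.91.

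Among the licensing factors, ORC6, a subunit of the origin recognition complex, had 583, 705 and 777 in the sg2 libraries, 381, 385 and 355 in the sg1 libraries, and 377, 424 and 321 in the NTC libraries. The sg2 libraries stood above all others, and sg1 lay within the NTC range. The log2 fold change was 0.88 ± 0.15 with sg2 (adjusted p = 0.00776) and 0.01 with sg1 (adjusted p = 0.975). MCM6, a subunit of the MCM helicase, split the sg2 group, with 1285, 2945 and 3142 in the sg2 libraries, 1038, 1199 and 1231 in the sg1 libraries, and 1217, 1371 and 1440.2 in the NTC libraries. Its sg2-1 library lay inside the NTC range, while sg2-2 and sg2-3 were higher than every other library. The sg2 estimate, 0.77 ± 0.29, did not pass (adjusted p = 0.123), and the difference between sg2 and sg1, 0.98 ± 0.29, did (adjusted p = 0.0322). Without sg2-1 the sg2 estimate was 1.18 and passed (adjusted p = 2.22e-05; 3.59e-06 to 0.356 over the alternatives). The other MCM subunits moved in a narrower band: MCM2 to MCM5 rose by 0.52 to 0.62 with sg2, MCM7 had 0.49 (0.63 without sg2-1, which passed), and with sg1 the estimates of these 5 were -0.19 to 0.05.

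In helicase activation, CDC45, which joins the MCM ring and the GINS complex to form the active helicase, had 774, 1246 and 1396 in the sg2 libraries, 549, 584 and 545 in the sg1 libraries, and 685, 686 and 673 in the NTC libraries. Each sg2 library lay above NTC and each sg1 library below it. The difference between sg2 and sg1 was 0.98 ± 0.19 (adjusted p = 0.0169), made up of 0.70 with sg2 (adjusted p = 0.051) and -0.28 with sg1 (adjusted p = 0.321). Without sg2-1 both passed, the sg2 estimate at 0.95 (adjusted p = 2.54e-05; 6.46e-06 to 0.179 over the alternatives) and the sg1 estimate (adjusted p = 0.0114; 0.0114 to 0.48 over the alternatives). GINS1 had 549, 909 and 981 in the sg2 libraries, 452, 387 and 371 in the sg1 libraries, and 543, 482 and 522 in the NTC libraries. GINS2 had 320.04, 621 and 675 in the sg2 libraries, 227, 220.5 and 255 in the sg1 libraries, and 282, 285 and 270.3 in the NTC libraries. In both, each sg2 library was above NTC, sg2-1 by the least, and each sg1 library was below it. The differences between sg2 and sg1 were 0.97 ± 0.20 for GINS1 (adjusted p = 0.0179) and 1.13 ± 0.24 for GINS2 (adjusted p = 0.0182). Against NTC the sg2 estimates were 0.61 for GINS1 and 0.87 for GINS2, and without sg2-1 0.87 and 1.21, which passed. MCM10, an origin firing factor, rose by 0.80 (adjusted p = 0.00671) and GINS3 by 0.72 (adjusted p = 0.0142) with sg2. GINS4 had 0.21 with sg2 and -0.38 with sg1, neither called; without sg2-1 the sg1 estimate passed (adjusted p = 0.0355; 0.0355 to 0.305 over the alternatives).

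All 5 clamp and loader subunits had an sg1 estimate below 0, -0.70 to -0.21, none of them called in the fit of all libraries. Without sg2-1 in the fit 4 of the 5, PCNA, RFC2, RFC3 and RFC5, passed as lower, and DESeq2 called RFC3. PCNA, the clamp that holds the polymerases on DNA, had 3100.5, 6578 and 7299 in the sg2 libraries, 2647, 2535 and 2501 in the sg1 libraries, and 4346, 4316 and 3863 in the NTC libraries. Its sg2-1 library lay between the sg1 and NTC libraries, while sg2-2 and sg2-3 were the highest. The sg2 estimate was 0.35 ± 0.27 (adjusted p = 0.456) and the difference between sg2 and sg1 1.05 ± 0.27 (adjusted p = 0.0235). Without sg2-1 the sg2 estimate was 0.73 and passed (adjusted p = 6.82e-05; 2.18e-05 to 0.86 over the alternatives). RFC2, a loader subunit, had 1468, 2763 and 2914 in the sg2 libraries, 1030.2, 1170.1 and 1030.4 in the sg1 libraries, and 1191, 1242 and 1295 in the NTC libraries. Here the 3 groups did not overlap, with sg2 on top and sg1 at the bottom. It rose by 0.87 ± 0.23 with sg2 (adjusted p = 0.0408, up to 0.151 over the alternatives). RFC3 had 581, 868 and 747 in the sg2 libraries, 388, 392 and 351 in the sg1 libraries, and 518, 546 and 529 in the NTC libraries. Its groups kept the same order without overlap, and sg2 exceeded sg1 by 0.94 ± 0.15 (adjusted p = 0.0122). Its sg2 estimate was 0.44, and 0.60 without sg2-1, which passed. RFC4 and RFC5 had 0.50 and 0.49 with sg2 and -0.24 and -0.40 with sg1; without sg2-1 their sg2 estimates were 0.68 and 0.79 and passed.

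Among the polymerase and lagging strand genes, FEN1, the flap endonuclease that trims Okazaki fragments, had 3107, 5132 and 5141 in the sg2 libraries, 2298, 2428 and 2157 in the sg1 libraries, and 2187, 2318 and 2094 in the NTC libraries. The sg2 libraries were above all others, and sg1 overlapped with NTC. It rose 1.98-fold with sg2 (0.98 ± 0.18, adjusted p = 0.0115, up to 0.0601). POLA2, a subunit of the polymerase alpha and primase complex, had 355, 429 and 519 in the sg2 libraries, 315, 301 and 294 in the sg1 libraries, and 242, 302 and 281 in the NTC libraries. Its sg2 values were the highest, and sg1 lay from inside to just above the NTC range. The rise with sg2 was 0.65 ± 0.16 (adjusted p = 0.0349, up to 0.153). PRIM1, the catalytic primase subunit, had the widest gap between the guides of the 39 genes, with 555, 1391 and 1552 in the sg2 libraries, 379, 376 and 357 in the sg1 libraries, and 576, 556 and 599 in the NTC libraries. The sg2-1 library was level with the lowest NTC library, sg2-2 and sg2-3 were far higher, and sg1 was below NTC. The difference between sg2 and sg1 was 1.52 ± 0.31 (adjusted p = 0.0179, up to 0.0871). Against NTC the sg2 estimate was 0.88 (adjusted p = 0.109), and without sg2-1 it was 1.35 and passed (adjusted p = 7.22e-06; 9.8e-07 to 0.328 over the alternatives).

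POLE, the catalytic subunit of the leading strand polymerase, was the one gene of the 39 with a lower sg2 than sg1 estimate. It had 2336, 1591 and 1559.7 in the sg2 libraries, 2113, 2014 and 1717 in the sg1 libraries, and 1363, 1506 and 1351 in the NTC libraries. All 6 knockout libraries were above NTC, with sg2-1 at the top and sg2-2 and sg2-3 below every sg1 library. The estimates were 0.35 ± 0.16 with sg2 (adjusted p = 0.206) and 0.47 ± 0.16 with sg1 (adjusted p = 0.11), and their difference was -0.11 ± 0.16 (adjusted p = 0.603). Without sg2-1 the difference was -0.30 and POLE passed as lower in sg2 than in sg1 (adjusted p = 0.0194; 0.00171 to 0.973 over the alternatives), and its sg1 estimate passed too. POLA1 had 0.46 with sg2 (0.59 without sg2-1, which passed) and -0.14 with sg1. POLD1, of the lagging strand polymerase, and LIG1, the ligase that seals Okazaki fragments, had sg2 estimates of 0.20 and 0.19, near the low end of the 39.

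Ribonucleotide reductase makes the deoxynucleotides for replication. RRM2, its small subunit, had 1816, 2623 and 2931 in the sg2 libraries, 1167, 1217 and 980.4 in the sg1 libraries, and 1425, 1345 and 1540.2 in the NTC libraries. The groups were ordered sg2, NTC, sg1 without overlap. It rose by 0.75 ± 0.18 with sg2 (adjusted p = 0.0287, up to 0.112), and sg2 exceeded sg1 by 1.11 ± 0.18 (adjusted p = 0.0121). RRM1, the large subunit, had 4024, 6474 and 5957 in the sg2 libraries, 3126, 3174 and 2754 in the sg1 libraries, and 4149, 3991 and 4076 in the NTC libraries. Its sg2-1 library was inside the NTC range, and sg1 lay below it. The sg2 estimate was 0.40 (adjusted p = 0.167) and the difference from sg1 0.84 ± 0.17 (adjusted p = 0.0174). Without sg2-1 the sg2 estimate was 0.61 and passed (adjusted p = 0.000204; 2.74e-05 to 0.463 over the alternatives).

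Of the other cyclins, CCNE2, cyclin E2, had 412, 864 and 883 in the sg2 libraries, 348, 318 and 247 in the sg1 libraries, and 453, 463 and 350.5 in the NTC libraries. Its sg2-1 library was inside the NTC range, unlike that of CCNE1, and sg1 lay below the NTC libraries. The sg2 estimate was 0.70 ± 0.28 (adjusted p = 0.147) and the difference between sg2 and sg1 1.17 ± 0.28 (adjusted p = 0.0205). Without sg2-1 the sg2 estimate was 1.06 and passed (adjusted p = 0.000511; 3.53e-05 to 0.407 over the alternatives). CCND1, cyclin D1, which acts earlier in G1, had the lowest sg2 estimate of the 39, 0.17 (adjusted p = 0.399), and -0.03 with sg1. CDK2 had 0.27 with sg2 and -0.25 with sg1, neither called; without sg2-1 the sg2 estimate was 0.37 and passed.

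E2F1, an activator of this program, had 1568, 2114 and 2094 in the sg2 libraries, 1330.4, 1397 and 1199 in the sg1 libraries, and 1228, 1260.2 and 1277 in the NTC libraries. The sg2 libraries were above all others, and sg1 overlapped with NTC. It rose by 0.60 ± 0.13 with sg2 (adjusted p = 0.0234, up to 0.105), against 0.06 with sg1. SLBP, which binds the stem-loop of histone mRNAs and is made in S phase, had 1880.5, 2774 and 2833 in the sg2 libraries, 1512, 1558 and 1412 in the sg1 libraries, and 1965, 1987 and 1779.6 in the NTC libraries. The sg2-1 library was inside the NTC range, sg2-2 and sg2-3 were above it and sg1 was below. The sg2 estimate was 0.36 (adjusted p = 0.178) and the difference from sg1 0.72 ± 0.16 (adjusted p = 0.0182). Without sg2-1 the sg2 estimate was 0.55 and passed (adjusted p = 0.000287; 0.000101 to 0.454 over the alternatives). UHRF1, which guides DNA methylation after replication, rose by 0.46 with sg2 (adjusted p = 0.038) and had 0.16 with sg1.

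In 10 of the 39 genes the sg2 libraries all lay above NTC and the sg1 libraries all below it, against 1.72% of all genes: MCM2, MCM3, MCM4, MCM7, CDC45, GINS1, GINS2, RFC2, RFC3 and RRM2. Both comparisons share the NTC libraries. By library, 10, 12 and 5 of the 39 genes were above each NTC library in sg1-1, sg1-2 and sg1-3, where 34.7%, 35% and 35.7% of all genes were. Below each NTC library were 19, 18 and 24 of the 39, where 41.6%, 39.2% and 40.8% of all genes were. The spread over the 39 genes was wider in sg2, with a median coefficient of variation of 19.6%, than in sg1 (6.46%) and NTC (5.11%).

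**Figure D5:**
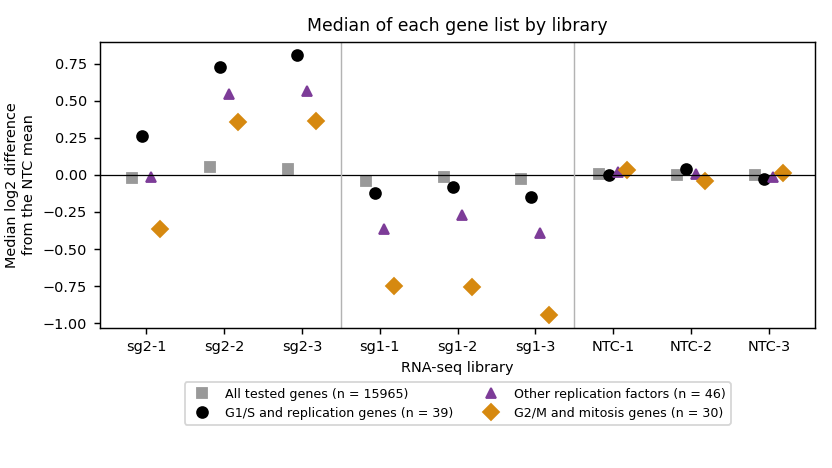
Median log2 difference from the NTC mean of 4 sets of genes in each of 9 libraries: all tested genes, the 39 G1/S and replication genes, 46 other replication factors and 30 G2/M genes. All tested genes stay between -0.04 and 0.05, and the 39 genes reach 0.26, 0.73 and 0.81 in sg2 and -0.15 to -0.08 in sg1.

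Other genes of the pathway were read from lists of 46 further replication factors and 29 G1/S regulators. Of the 46 factors 7 rose and 0 fell with sg2 (4.19% of all genes rose and 4.57% fell). Leaving out 1 library gave 0 to 7 rises, in fits in which 2.22% to 8.39% of all genes changed. Without sg2-1 it gave 36 rises and 3 falls, in a fit in which 44.8% of all genes changed. With sg1 0 passed limma (0.194% of all genes), and 20 had an unadjusted p below 0.05. From edgeR came 0 (0.169% of all genes) and from DESeq2 2 higher and 10 lower (14.0% of all genes changed). Without sg2-1 3 were higher and 31 lower, where 40.7% of all genes changed. In the mean of both guides 1 rose (1.74% of all genes rose). In sg2, 33 were higher and 1 lower than in sg1 (18.3% and 11.5% of all genes). Without any 1 of sg2-2, sg2-3, sg1-1, sg1-2 and sg1-3 the number was 0 or 1, where 0.106% to 0.958% of all genes differed. Of the 7 rises called with sg2 in the fit of all libraries, the largest were those of TIPIN, a partner of the fork protein timeless (0.87), DONSON, a fork factor (0.75), EXO1, an exonuclease (0.72), CHAF1A, of the histone chaperone CAF-1 (0.65), and MCM8, a helicase of the MCM family (0.64), with adjusted p values from 0.0128 to 0.0339. The highest estimate in the list, 0.93, was not among those called. CHAF1A also rose in the mean of both guides (0.50, adjusted p = 0.0361). By library the median of this list was -0.02 for sg2-1, 0.54 for sg2-2, 0.56 for sg2-3 and from -0.39 to -0.27 for sg1.

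Of the G1/S regulators 26 were tested, and with sg2 1 rose and 3 fell (4.19% and 4.57% of all genes). Without sg2-1 10 rose and 4 fell, where 44.8% of all genes changed. Without any other library at most 1 rose and at most 2 fell, where 2.22% to 8.39% of all genes changed. With sg1 0 passed limma (0.194% of all genes), and 11 had an unadjusted p below 0.05. From edgeR came 0 (0.169% of all genes) and from DESeq2 1 higher and 8 lower (14.0% of all genes changed). Without sg2-1 12 were lower and 1 higher, where 40.7% of all genes changed. Over both guides 2 fell in the mean (2.25% of all genes fell), or 0 to 6 with 1 library left out (0.188% to 21.6% of all genes changed). TFDP1, the partner of E2F proteins, rose by 0.36 with sg2 (adjusted p = 0.0487). RBL2, a pocket protein that represses E2F targets, fell by 0.74 (adjusted p = 0.0263), TFDP2, another E2F partner, by 0.64 (adjusted p = 0.0115) and CDKN1A, the CDK inhibitor p21, by 0.64 (adjusted p = 0.0429) on the log2 scale with sg2. RB1, the retinoblastoma gene, had normalized counts of 1645, 1821 and 1779 in sg2, 1493, 1524 and 1349 in sg1, and 2129.6, 1970.1 and 2357 in NTC. Each knockout library lay below each NTC library (5.88% of all genes), and RB1 fell by 0.43 in the mean of both guides (adjusted p = 0.0395), as did TFDP2 by 0.54 (adjusted p = 0.0227). Neither fall was called without sg1-1, sg1-2, NTC-1 or NTC-3, where 0.188% to 1.46% of all genes changed. Of 30 G2/M genes, 28 were higher in sg2 than in sg1 (18.3% of all genes), and 0 to 2 without any 1 of sg2-2, sg2-3, sg1-1, sg1-2 and sg1-3 (0.106% to 0.958% differed). Against NTC 0 passed with sg2 (median log2 fold change 0.16), or 22 as higher without sg2-1 (44.8% of all genes changed). With sg1 all 30 estimates were below 0 (median -0.81), 27 at an unadjusted p below 0.05. Limma called 1 of them lower (0.0814% of all genes), DESeq2 25 (14.0% changed) and limma without sg2-1 27 (40.7% changed). By library the median of the 30 was -0.37 for sg2-1, 0.35 for sg2-2, 0.36 for sg2-3 and from -0.94 to -0.75 for sg1.

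Summits of m6A were placed in the RefSeq spans of the 40 genes, including E2F2. There is 1 summit list per condition, so these values carry no replicate error and no test. A summit lay in 12 of the 40 genes in the KD list and in 18 in the NTC list, 30% and 45%, against 29.9% and 38.4% of 12204 coding genes tested in RNA-seq. The KD list is shorter, with 5923 summits against 8377 in NTC. Of the 19 NTC summits in these genes, 9 had a KD summit within 100 bases (47.4%, exact 95% interval 24.4% to 71.1%, which covers counting error only), against 47.5% of the 8078 NTC summits on the main chromosomes.

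The summit scores are the authors' -log10 values and rank summits only within a list. In the KD list MCM10 had the highest score of these genes, 10.1 (7.71 in NTC), followed by FEN1 (8.51 in KD, 11.4 in NTC), SLBP (8.41 in KD, none in NTC), UHRF1 (8.17 in KD, 11.4 in NTC) and CDC25A (8.08 in KD, 5.44 in NTC). In the NTC list MCM2 was highest, with a summit of 5.40 in KD and one of 14.0 in NTC, the NTC one 595 bases from the end of the gene. ORC1 (none in KD, 11.2 in NTC), CLSPN (3.78 in KD, 10.6 in NTC) and POLA2 (none in KD, 10.4 in NTC) also passed 10 in NTC. MCM6, SLBP and CCNE2 had a summit in KD alone. CDC6, CCNE1 and ORC6 had none in either list. Of the 17 measured genes with an NTC summit 14 rose with sg2, with a median log2 fold change of 0.65. Of the 22 without one 5 rose, with a median of 0.55 (4.19% of all genes rose). This split changed with the fit: without sg2-1, 34 of the 39 rose, where 44.8% of all genes changed. Among the genes gained there, only PCNA and CDK2 had an NTC summit. The calling of summits also depends on expression, whose part was not tested.

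Reads of overlapping genes can be shared, and the sources used here do not give the strand setting of the counting. The spans of 16 of the 40 genes overlap another coding or long noncoding gene, 6 of them a coding gene, among these ORC1 (PRPF38A), MCM7 (AP4M1), RFC5 (WSB2) and UHRF1 (ARRDC5), and values of these genes are uncertain to that degree.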

How the data were processed

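RNA-seq was analysed in 9 libraries and MeRIP-seq in the summit lists of 2 conditions; groups and replicate numbers come from the sample titles. The submitters' processing notes list STAR, HTSeq, DESeq2, MACS2, cutadapt, FastQC 0.11.8 and hg38, without roles or settings. The deposited expression values are a normalized signal, not raw counts, scaled by 1 factor in each library: 100% of values were whole multiples of a library's step within 0.1 read, which gave the reads and depth. In NTC-2 the step is near 1, so its recovery is less certain. In the lists of summits deposited by the authors, each has a position and a -log10 score.

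The 40 genes, the other lists, the rule for naming genes and the alternatives were chosen with earlier results of these data known, so no list is independent evidence. The values being normalized, limma 3.58.1 (R 4.3.3, trended prior variance) on log2(value + 1) was the main test, with the 3 groups in 1 fit and Benjamini-Hochberg adjustment over 15965 genes; this scale understates changes of low genes. On the recovered reads, DESeq2 1.42.0 and edgeR 4.0.16 were alternatives. Values in each library are given for genes called in the mean of both guides, up to 3 per role with the largest called change, and a gene that goes against its role.

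The deviations from group means of sg1 and sg2 libraries of the same number were correlated (0.156 to 0.258), and NTC libraries did not pair with them, so the block was put on sg1 and sg2; this pairing comes from the data, not the labels, and is weak. Gene spans and promoters are those of RefSeq, on GRCh38.p14; promoters of MCM4, MCM5, GINS4, CCND1, CCNE2 and CDK2 were not used. MeRIP-seq depth is unknown here. The limma fit was tested on simulated counts with a change in sg2 and no library set apart from its group. The other steps were not tested on simulated data.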

Additional observations from a re-analysis of the deposited data

Results flagged for a closer look

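The change from NTC differed between sg2 and sg1 in 32 of the 39 genes (limma test of sg2 against sg1, adjusted p below 0.05), as described above, where 29.8% of all genes differed. This number is 0 to 2 without any 1 of sg2-2, sg2-3, sg1-1, sg1-2 and sg1-3, where 0.106% to 0.958% of all genes differed. Among the 32, 10 genes had every sg2 library above NTC and every sg1 library below it (1.72% of all genes). The log2 difference between sg2 and sg1 was 1.13 for GINS2, 1.11 for RRM2, 1.08 for RFC2, 0.98 for CDC45, 0.97 for GINS1, 0.94 for RFC3, 0.73 for MCM4, 0.72 for MCM2, 0.70 for MCM3 and 0.62 for MCM7. All 10 belong to licensing, helicase activation, the clamp and loader or the reductase. These roles hold 10, 6, 5 and 2 of the 39 genes, and whether the 10 favour them was not tested.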

How the results depend on the processing

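The 39 estimates for sg2 against NTC were above 0 in the main fit and in each alternative, while the number called moved. The share of all genes called in the same fit follows each count in brackets. From 19 (8.76%) it went to 11 (2.26%) with no filter on low values, 9 (4.00%) with only the groups compared, 29 (18.9%) with DESeq2, 11 (6.87%) without a trend in the prior variance, 34 (50.2%) without sg1-3 and sg2-1 together, and 6 to 34 (2.22% to 44.8%) when each library was left out. For sg1 against NTC, 0 (0.194%) became 13 (37.4%) with only the groups compared, 2 (14.0%) with DESeq2, 17 (41.1%) without sg1-3 and sg2-1 together, and 0 to 16 (0% to 40.7%) over single libraries left out. For the mean of both guides, 6 (3.98%) became 1 (0.87%) with no filter, 13 (10.1%) with DESeq2, 1 (3.02%) without a trend, 27 (26.2%) without both libraries, and 0 to 25 (0.188% to 21.6%) over single libraries; this mean needs all 3 groups, so it has no fit of fewer. Between sg2 and sg1, 32 (29.8%) became 0 (0.0188%) with only these groups, and 0 to 35 (0.106% to 62.9%) over single libraries. The causes were not tested. Pseudocounts of 0.5 and 5 and TMM scaling kept each count within 1.5 times its value.

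The replicate block over all libraries gave 12 genes (6.32%) for sg2, 0 (0%) for sg1, 1 (1.82%) for the mean and 32 (27.6%) between the guides. The block in sg1 and sg2 gave 24 (11.4%), 1 (7.50%), 6 (4.70%) and 32 (39.4%). With this second block no count but that of sg1 changed beyond 1.5 times.

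No estimate that turned sign in an alternative was called there. For sg2 against NTC 0 of the 39 turned. For the mean of both guides 8 did, none called with all libraries: PCNA, RFC3, RFC5, PRIM1, RRM1, CCNE2, CDK2 and SLBP; of these PRIM1, at -0.015 to 0.37 over the alternatives, was called higher in 2 and CCNE2, at -0.017 to 0.36, in 1. For sg1 against NTC the genes were POLD1 (-0.099 to 0.0096 over single libraries left out, and 0.0096 without sg1-3 and sg2-1), ORC6 (-0.098 to 0.10), CCND1 (-0.071 to 0.023, 0.0061 with edgeR, 0.0070 with DESeq2, 0.0055 with TMM and 0.023 without sg1-3 and sg2-1) and GINS3 (-0.0078 to 0.14). Between the guides CDT1 was at -0.091 to 0.20 over single libraries and at -0.15 without sg1-3 and sg2-1. With a summit score of at least 10 the genes with a summit were 1 of 40 in KD and 6 in NTC.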

Other observations

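The CDK inhibitors of the INK4 locus were next to absent. CDKN2A, which encodes p16, was at 0 in 7 of the 9 libraries and at most at 1.23 normalized counts, and was not tested. CDKN2B, its neighbour p15, was at 48.1 in sg1-3 and at most at 2.61 in the other libraries. PTPRC, a marker of blood cells, was at 108 in the same library and at 5.23 to 17.7 elsewhere. In sg1-3 the median of the 39 G1/S and replication genes, -0.15, was close to those of sg1-1 and sg1-2, -0.12 and -0.08.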
